A study of Mus musculus with 31 samples.

Results

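The 10 genes described here encode surface molecules through which an antigen-presenting cell tells a T cell to respond or to hold back. They are the B7 family ligands Cd80, Cd86, Cd274 (PD-L1), Pdcd1lg2 (PD-L2) and Icosl, the TNF family ligands Tnfsf4 (OX40 ligand), Tnfsf9 (4-1BB ligand) and Cd70, the TNF receptor Cd40, and Cd83. They form a list of names, drawn up with earlier results of these data known, and make up 10 of the 29120 gene identifiers in the deposited counts. The series compared C57BL/6 mice lacking the lipid-sensing receptor gene Gpr34 with wild-type C57BL/6 mice by RNA sequencing. It holds 12 dendritic cell libraries and 19 libraries of whole spleen. Dendritic cells were grown for 10 days from the bone marrow of male mice aged 8 to 16 weeks, in medium holding the supernatant of a cell line that secretes the growth factor GM-CSF. The 6 treated cultures then received lipopolysaccharide (LPS), from the outer membrane of bacteria, during 8 h on day 11. There were 3 naive wild-type, 3 naive knockout-labelled, 3 LPS wild-type and 3 LPS knockout-labelled libraries. The 10 wild-type and 9 knockout spleen libraries, called spleens below, came from mice aged 12 weeks with no treatment named. Neither the labels nor the count files say how the knockout was made, which LPS dose was used or whether replicates came from separate animals. The p-values here therefore reflect only the scatter of these libraries, which may be technical.

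A T cell that meets its antigen needs further signals from the presenting cell. Cd80 and Cd86 bind the activating receptor CD28 and the inhibitory receptor CTLA-4, Icosl binds ICOS, and Cd274 and Pdcd1lg2 bind the inhibitory receptor PD-1. Tnfsf4, Tnfsf9 and Cd70 bind OX40, 4-1BB and CD27 on the T cell, while Cd40 receives the T cell's CD40 ligand. Resting dendritic cells carry little of many of these molecules, and microbial products such as LPS are known to raise several of them as the cells mature. Cd83 is a widely used maturation marker that helps to keep MHC class II and Cd86 on the surface.

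The library labels were checked first. Gpr34 had 199 to 324 counts in naive and 65 to 125 counts in LPS wild-type cells. Among knockout-labelled cells, naive replicates 2, 3 and 4 had 0, 120 and 4 Gpr34 counts, and LPS replicates 2, 3 and 4 had 0, 117 and 104. Thus 3 of 6 knockout-labelled dendritic cell libraries held more than 100 Gpr34 counts. LPS replicates 3 and 4, at 2.34 and 2.21 CPM (counts per 1000000 of the library), lay within the LPS wild-type range of 1.46 to 3.44 CPM and went against their label. Naive replicate 3, at 1.48 CPM, lay below the naive wild-type range of 3.17 to 4.82 CPM and well above the 0 and 0.082 CPM of the other naive knockout-labelled libraries. Results that rest on these 3 libraries are given with and without them. In spleen, Gpr34 ranged from 308 to 986 counts in wild-type and from 42 to 156 in knockout libraries. There 5 of 9 knockout spleens held more than 100 counts. All 9 knockout spleens, at 0.398 to 1.66 CPM, lay below the wild-type range of 4.13 to 9.02 CPM, and all were kept. Total counts ran from 38998746 to 74164853 in dendritic cells and from 56834377 to 133277070 in spleen. The 10 dendritic cell markers summed to 11467 to 20720 CPM in dendritic cells, although Cd209a was at 0 in all LPS wild-type libraries. The same 10 markers summed to 10506 to 24205 CPM in spleens, so their sum does not tell dendritic cells from whole spleen. The 8 macrophage markers summed to 764 to 2057 CPM in dendritic cells. Marker sums of the other lineages in dendritic cells were at most 8.5 CPM for B cells, 11.4 for T cells, 2.0 for NK cells, 7.5 for erythroid cells, 34.5 for neutrophils, 57.5 for mast cells and basophils and 2.4 for exocrine pancreas. Naive replicate 3 labelled knockout stood apart from the other naive libraries in the genes described here, as set out below.

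In wild-type dendritic cells 9 of the 10 genes rose with LPS, all but Pdcd1lg2. The increase ran from 1.39-fold for Icosl to 19.3-fold for Cd70. All 10 passed the filter on low counts. By edgeR's quasi-likelihood test with Benjamini-Hochberg adjustment over 16965 genes, 33.9% of all genes were called (adjusted p below 0.05), 18.1% higher and 15.8% lower. The median log2 fold change was 1.61 over the 10 genes and -0.03 over all genes tested. The ranges of the 3 naive and 3 LPS libraries did not overlap for the same 9 genes, against 50.9% of all genes in either direction. Levels below are CPM of library sizes scaled for composition, in replicate order. Marker sums moved with LPS as well. The 10 dendritic cell markers summed to 11467 to 13400 CPM in naive and 17949 to 20720 CPM in LPS wild-type cells, with 7 of the 10 called higher and 1 lower. The sum of the 6 mast cell and basophil markers went from 52.7 to 57.5 CPM down to 22.3 to 30.3 CPM, with Mcpt4 at 0. Of the 4 tested, 1 was called lower and 3 were not called, with a median log2 fold change of 0.42. The 7 T cell markers summed to 2.27 to 3.17 CPM in naive and 9.24 to 11.4 CPM in LPS cells. Cd3e was at 0 in both, and Cd3d, Cd3g, Cd4 and Trac were also at 0 in LPS cells. Of 3 T cell markers tested, 1 was called higher and 1 lower. The 8 macrophage markers overlapped, at 1334 to 1543 and 1255 to 1768 CPM. The part of these shifts in the changes of the 10 genes was not tested. In bulk RNA, a change in the share of cells that express a gene and a change in RNA per cell cannot be told apart.

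The CD28 and CTLA-4 ligands rose together. Cd80 lies on chromosome 16 (GRCm38, 38455561-38496335) and Cd86 on the same chromosome (36603869-36666081, opposite strand), 1789479 bases away. Cd80 stood at 202, 207 and 216 CPM in naive wild-type replicates 1, 2 and 4 and at 570, 580 and 516 in LPS wild-type replicates 1, 2 and 3. Every LPS library exceeded every naive one, by 2.66-fold on average (log2 fold change 1.41, SE 0.28, edgeR adjusted p = 0.00244). Cd86 read 355, 339 and 346 CPM in naive and 1005, 980 and 855 CPM in LPS cells. Its change was 2.73-fold (log2 1.45, SE 0.24, edgeR adjusted p = 0.000886), again with no overlap. The level of Cd86 per kilobase of exons over that of Cd80 in the same library was 1.68 ± 0.08 (SD, n = 3) in naive and 1.72 ± 0.06 (SD, n = 3) in LPS wild-type cells, and the ranges of this ratio overlapped.

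The PD-1 ligands did not move together although they are neighbours. Cd274 (chromosome 19, 29367455-29388095) and Pdcd1lg2 (29410919-29471161) lie on the same strand, 22823 bases apart, and each is overlapped by an annotated antisense transcript whose reads cannot be told apart here, since no source used here gives the strand setting of the counting. Because one rose and the other did not pass the test, the 250 bases before the start of each are shown from RefSeq (GRCm38.p6, plus strand, 5′ to 3′). Capitals mark matches to the NF-kappaB-like pattern GGGNNNNNCC on either strand.

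Cd274 (chr19:29367188-29367437): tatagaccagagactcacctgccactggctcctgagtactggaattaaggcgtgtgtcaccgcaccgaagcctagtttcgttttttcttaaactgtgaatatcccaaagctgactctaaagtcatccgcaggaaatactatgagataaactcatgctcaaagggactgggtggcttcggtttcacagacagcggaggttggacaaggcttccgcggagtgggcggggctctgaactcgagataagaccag
Pdcd1lg2 (chr19:29410669-29410918): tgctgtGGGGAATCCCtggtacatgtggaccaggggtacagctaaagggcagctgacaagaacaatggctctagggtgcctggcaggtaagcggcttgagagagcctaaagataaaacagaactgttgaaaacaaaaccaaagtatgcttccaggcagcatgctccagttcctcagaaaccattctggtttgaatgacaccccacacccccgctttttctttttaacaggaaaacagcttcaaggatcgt

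The pattern was not in the Cd274 window and matched GGGGAATCCC in the Pdcd1lg2 window, 244 to 235 bases before the start, on both strands. It occurs in 45.8% of 32851 mouse promoter windows of this length, so the match is a description of these letters. Neither window held TTCNNNGAA, GAAANNGAAA, TGANTCA or TATAAA on either strand, which occur in 7.02%, 2.98%, 6.75% and 12.4% of the windows. Of the 10 genes, 4 had an entry in the promoter table. The window of Cd80 held 2 matches to GGGNNNNNCC and 1 to TGANTCA, and that of Icosl held 2 matches to GGGNNNNNCC.

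Cd274 was at 111, 122 and 112 CPM in naive wild-type libraries and at 376, 383 and 414 CPM after LPS. The 3.40-fold rise (log2 1.77, SE 0.18, edgeR adjusted p = 4.3e-05) had the smallest adjusted p of the 10 genes. Pdcd1lg2 was at 40.7, 45.6 and 39.6 CPM in naive and at 48.3, 42.7 and 46.3 CPM in LPS cells. The LPS libraries overlapped the naive ones, and the log2 fold change was 0.12 (95% interval -0.17 to 0.42, edgeR adjusted p = 0.519). The level of Cd274 per kilobase over that of Pdcd1lg2, a ratio within a library that no scaling touches, went from 1.48 ± 0.05 (SD, n = 3) in naive to 4.63 ± 0.36 (SD, n = 3) in LPS wild-type cells. The naive ratios reached at most 1.54 and the LPS ratios began at 4.21.

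Icosl (chromosome 10, 78069302-78083913), the ligand of ICOS, had the smallest called change. It was at 34.7, 35.3 and 36.6 CPM in naive and at 55.0, 49.3 and 44.0 CPM in LPS wild-type cells (1.39-fold, log2 0.48, SE 0.16, edgeR adjusted p = 0.0414). This call depended on the scaling: without composition factors the log2 fold change was 0.068 (adjusted p = 0.756), and the median of all genes moved to -0.44. It was also lost when any of naive wild-type replicates 1, 2 and 4, naive knockout-labelled replicates 3 and 4, or LPS wild-type replicates 1 and 2 was left out (adjusted p up to 0.138).

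The TNF family molecules had the largest changes. Cd40 (chromosome 2, 165055627-165072948), the receptor that lets T cells license dendritic cells, was at 92.5, 90.4 and 114 CPM in naive wild-type cells. After LPS it read 1946, 1691 and 2011 CPM, a 19.02-fold rise (log2 4.25, SE 0.61, edgeR adjusted p = 0.00038). Cd70 (chromosome 17, 57145997-57149777), the CD27 ligand, was near the bottom of the range in naive cells at 0.892, 1.46 and 1.53 CPM. It read 26.0, 23.4 and 25.5 CPM after LPS, which is 19.3-fold higher (log2 4.27, SE 0.88, edgeR adjusted p = 0.00345). Both genes thus changed by a similar factor from very different starting levels, and neither had overlapping groups.

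Tnfsf9 (chromosome 17, 57105325-57107757, overlapped on the other strand by a long noncoding RNA) lies 38239 bases from Cd70. It went from 2.81, 3.57 and 4.62 CPM to 29.9, 25.4 and 29.9 CPM (7.74-fold, log2 2.95, SE 0.51, edgeR adjusted p = 0.00112). Tnfsf4 (chromosome 1, 161395409-161418410), whose product supports effector and memory T cells through OX40, was the steadiest naive reading at 20.5, 20.4 and 20.5 CPM. After LPS it stood at 145, 136 and 118 CPM (6.48-fold, log2 2.70, SE 0.47, edgeR adjusted p = 0.00129). In neither gene did the groups overlap.

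Cd83 (chromosome 13, 43784775-43803132) was already high in naive wild-type cells, at 269, 349 and 322 CPM. It read 582.8, 575.3 and 567.5 CPM after LPS, 1.83-fold higher (log2 0.88, SE 0.25, edgeR adjusted p = 0.0183). The 3 LPS libraries lay closer together than the 3 naive ones. The call was lost without composition factors (log2 0.47, adjusted p = 0.135) and without naive wild-type replicate 1 or 4 (adjusted p = 0.0848 and 0.0568).

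**Figure D1:**
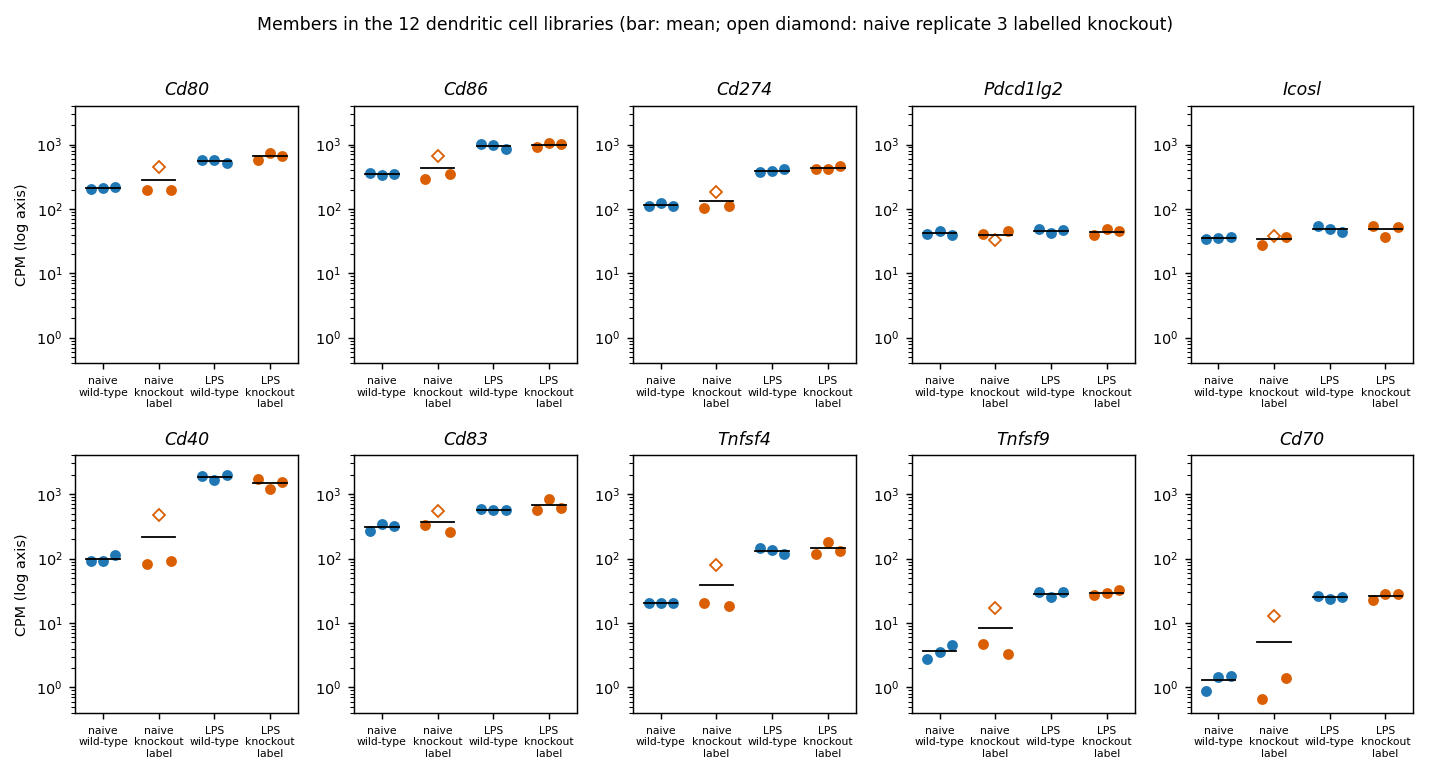
CPM of each gene (log axis) in the 12 dendritic cell libraries, by group, with each point 1 library and each bar the group mean. In 9 of the 10 panels the 3 LPS wild-type libraries lie above the 3 naive wild-type ones, and the open diamond, naive replicate 3 labelled knockout, lies between the other naive and the LPS libraries for Cd40, Cd80, Cd86, Cd83, Cd274, Tnfsf4, Tnfsf9 and Cd70.

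The order of the genes changed with treatment. Per kilobase of exons, naive wild-type cells held most Cd83 (122 ± 15.9 CPM per kilobase, SD, n = 3), then Cd86 (94.6 ± 2.20), Cd80 (56.3 ± 1.90), Cd274 (31.7 ± 1.66), Cd40 (29.1 ± 3.86), Pdcd1lg2 (21.4 ± 1.61), Tnfsf4 (11.1 ± 0.03), Icosl (7.69 ± 0.22), Tnfsf9 (2.84 ± 0.70) and Cd70 (1.54 ± 0.41). Only the neighbours Cd274 and Cd40 overlapped in range. In LPS wild-type cells Cd40 came first (553 ± 49.6 CPM per kilobase, SD, n = 3), followed by Cd86 (259 ± 22.1), Cd83 (224 ± 2.96), Cd80 (150 ± 9.27), Cd274 (108 ± 5.60), Tnfsf4 (72.1 ± 7.47), Cd70 (29.7 ± 1.66), Pdcd1lg2 (23.3 ± 1.43), Tnfsf9 (22.03 ± 2.04) and Icosl (10.7 ± 1.19). Of these neighbours, only Pdcd1lg2 and Tnfsf9 overlapped. Cd40 thus moved from the fifth place to the first and Cd70 from the last to the seventh. These lengths are the joined exons of GENCODE M21, not those of the annotation behind the counts.

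**Figure D2:**
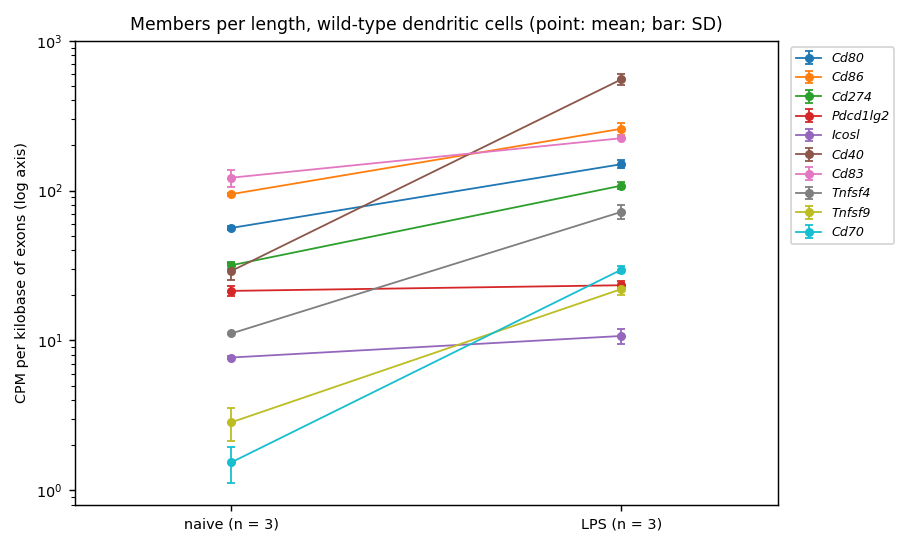
Mean CPM per kilobase of exons (log axis) of each gene in naive and LPS wild-type dendritic cells, with bars of 1 SD (n = 3 each) and lines joining the same gene. The line of Cd40 is among the steepest and crosses those of Cd274, Cd80, Cd86 and Cd83, while that of Pdcd1lg2 is nearly flat, from 21.4 to 23.3.

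In knockout-labelled cells the same 9 genes were called higher with LPS, where 28.7% of all genes were called, 15.3% higher and 13.4% lower. Cd40 rose most (6.86-fold, log2 2.78, SE 0.57, edgeR adjusted p = 0.00406), and Cd70 rose 5.10-fold (log2 2.35, SE 0.80, adjusted p = 0.0469). Tnfsf4 (log2 1.88, adjusted p = 0.0105), Tnfsf9 (1.82, adjusted p = 0.0157) and Cd274 (1.71, adjusted p = 6.89e-05) followed. Cd80 and Cd86 rose by 1.22 and 1.21, Cd83 by 0.84 and Icosl by 0.49 on the log2 scale, and Pdcd1lg2 had 0.16 (95% interval -0.13 to 0.45, edgeR adjusted p = 0.413). Groups did not overlap for 8 genes, against 41.7% of all genes, because the ranges of Icosl as well as Pdcd1lg2 met. The median over the 10 genes was 1.46, and -0.02 over all genes tested.

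These values turned on naive replicate 3. Without it, the same comparison called 9 genes with edgeR and gave log2 fold changes of 4.08 for Cd40, 4.65 for Cd70, 2.87 for Tnfsf4, 2.85 for Tnfsf9, 2.00 for Cd274, 1.73 for Cd80, 1.63 for Cd86, 1.19 for Cd83, 0.55 for Icosl and 0.03 for Pdcd1lg2. Without all 3 libraries of more than 100 Gpr34 counts, Cd40 was at 4.27 and Cd70 at 4.43. That fit leaves 1 LPS knockout-labelled library, which is assumed to vary like the other groups. With every library kept, the Cd70 call was lost in 11 of 12 fits that left out 1 library, all but the fit without naive knockout-labelled replicate 3 (adjusted p up to 0.131). Cd83 was lost without naive knockout-labelled replicate 2 or 4 or LPS knockout-labelled replicate 3, and Tnfsf9 without naive knockout-labelled replicate 2 (adjusted p = 0.0621). Icosl was lost in 8 of 12 such fits: without any naive wild-type library, naive knockout-labelled replicate 2 or 4, LPS wild-type replicate 2, or LPS knockout-labelled replicate 2 or 4.

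**Figure D3:**
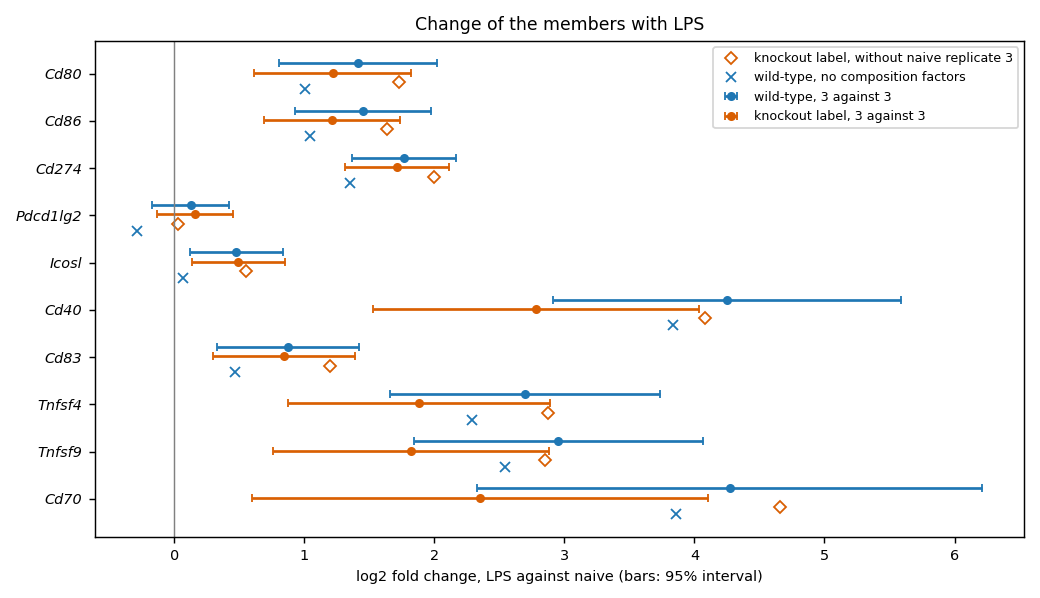
Log2 fold change of each gene with LPS in wild-type (blue) and knockout-labelled (orange) dendritic cells, with bars of the 95% interval. Open diamonds leave out naive replicate 3 labelled knockout and move Cd40 from 2.78 to 4.08, and crosses use no composition factors in wild-type cells and put Pdcd1lg2 below 0, at -0.29.

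Naive replicate 3 labelled knockout carried 8 of these genes at levels between those of the other naive and the LPS libraries. It was singled out after its values were seen, so the following is a description with no test. Its reading was above all 5 other naive libraries for 9 of the 10 genes, against 26.1% of all genes tested. For 7 of them it was at least 1.5-fold above the highest of the other 5, against 4.4% of all genes, and in the other naive libraries that share lay between 1.04% and 1.64% with 0 of the 10 genes. Cd70 was at 13.1 CPM against 0.668 to 1.53 in the other 5, which is 8.53 times the highest of them. Cd40 was at 477 CPM against 83.3 to 114 (4.18 times the highest), Tnfsf4 at 78.2 against 18.5 to 20.6 (3.80 times) and Tnfsf9 at 16.8 against 2.81 to 4.76 (3.53 times). Cd80 stood at 454 CPM (2.10 times the highest), Cd86 at 655 (1.85 times), Cd83 at 545 (1.56 times) and Cd274 at 181 (1.49 times). Icosl, at 37.6 CPM, was close to the highest of the other 5, and Pdcd1lg2, at 32.9 CPM, was below all 5.

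The approach to the LPS level differed from gene to gene in this library. Cd83 reached 94.0% of the median of the 6 LPS libraries and Cd80 78.9%. Cd86 was at 66.0%, Tnfsf4 at 58.5%, Tnfsf9 at 57.3%, Cd70 at 50.6%, Cd274 at 43.8% and Cd40 at 28.0%. Among genes chosen after their values were seen, the migration receptor Ccr7 reached 72.0% and the cytoskeletal maturation marker Fscn1 49.9%. The cytokine genes Il12b and Tnf, whose rises with LPS in wild-type cells exceeded those of all 10 genes, reached 2.46% and 4.12%. Of 16 maturation genes, 15 were above all other naive libraries, as were 8 of 10 dendritic cell markers. None of the 8 macrophage markers was, against 26.1% of all genes tested. No tested marker of neutrophils (6), mast cells and basophils (4) or B cells (6) was either. Nor was any of T cells (3), NK cells (1) or exocrine pancreas (2), while 2 of 3 erythroid markers were. Of the macrophage markers, Adgre1 read 117 CPM against 282 to 324, and Mrc1 8.33 CPM against 38.3 to 68.3. These 2 were chosen after their values were seen. The macrophage marker sum of this library was 764 CPM, the lowest of the naive libraries. The part of these differences in the levels of the 10 genes was not tested.

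**Figure D4:**
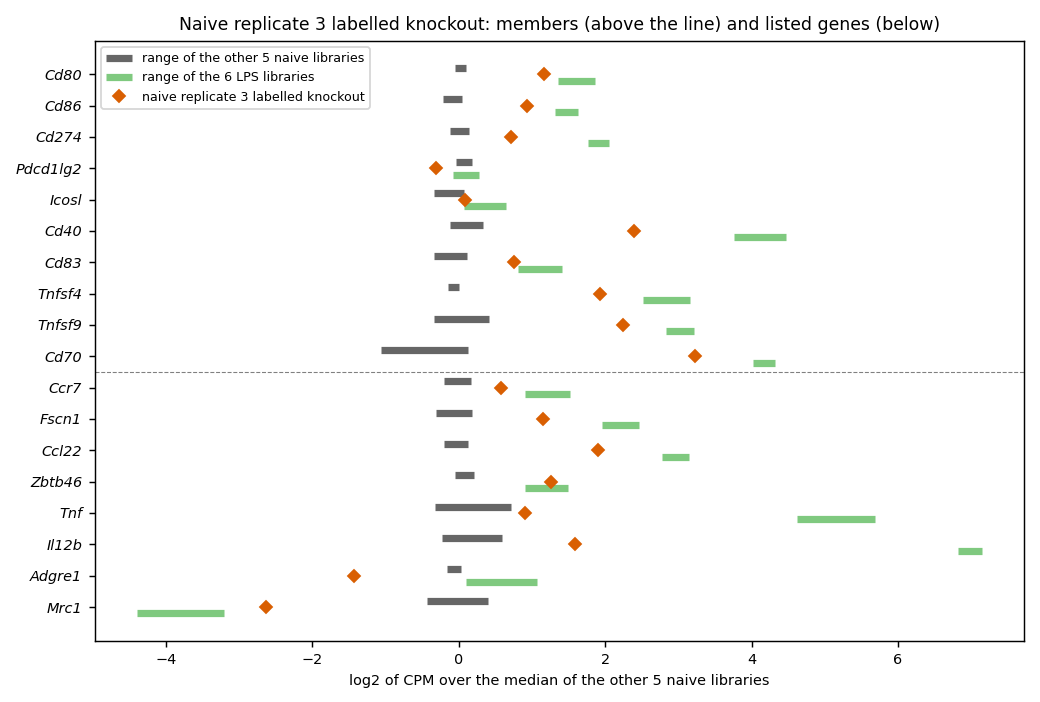
Level of each gene in naive replicate 3 labelled knockout (diamond) as log2 of its CPM over the median of the other 5 naive libraries, with their range (dark bars) and the range of the 6 LPS libraries (light bars). The 10 genes are above the dashed line; Cd40 and Cd70 lie far from the dark bars without reaching the light ones, Il12b and Tnf stay far below the LPS range, and Adgre1 and Mrc1 lie below the other naive libraries.

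Genotype was compared next, which is the question the series was built on. With all libraries, no gene of the 10 and no other gene was called between knockout-labelled and wild-type naive cells by edgeR (0% of 16965 genes, 1139 at an unadjusted p below 0.05). With DESeq2 46 genes were called higher and 30 lower, with limma voom 1 lower, and with neither any of the 10. The largest log2 differences were 1.98 for Cd70 (95% interval 0.17 to 3.79, edgeR adjusted p = 0.732), 1.19 for Tnfsf9 (0.13 to 2.25, adjusted p = 0.729) and 1.13 for Cd40 (-0.057 to 2.32, adjusted p = 0.750). Without naive replicate 3 these were -0.35, 0.13 and -0.20. In that fit all 10 differences lay between -0.35 and 0.13. The CPM ranges of the groups overlapped for each of the 10 genes, where 13.1% of all genes did not overlap.

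After LPS, again 0% of genes were called by edgeR (1914 at an unadjusted p below 0.05), while the calls of DESeq2 were 221 higher and 151 lower, and those of limma voom 0, with none of the 10 genes among them. The log2 differences of the 10 genes ran from -0.34 for Cd40 (95% interval -1.51 to 0.84) to 0.24 for Cd80 (-0.36 to 0.83). Cd40 was at 1714, 1221 and 1534 CPM in LPS knockout-labelled replicates 2, 3 and 4. Cd274 was the only one whose groups did not overlap, with 419, 414 and 461 CPM in knockout-labelled against 376, 383 and 414 CPM in wild-type cells. Its difference was small (log2 0.14, 95% interval -0.24 to 0.53, edgeR adjusted p = 0.821), the highest wild-type library lay just below the lowest knockout-labelled one, and 17.5% of all genes had no overlap. Without the libraries of more than 100 Gpr34 counts, the differences of the 10 genes ran from -0.26 for Pdcd1lg2 to 0.11 for Icosl. That fit leaves 1 LPS knockout-labelled library, replicate 2, so only the sizes of the differences are given. Tnfsf4 and Cd83 were highest in LPS knockout-labelled replicate 3, at 182 and 857 CPM against 118 to 145 and 564 to 604 in the other 5 LPS libraries.

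The difference of the LPS responses between genotypes was tested as an interaction. By edgeR it was called for 0% of genes (678 at an unadjusted p below 0.05), by DESeq2 for 10 higher and 11 lower genes and by limma voom for 0, and for none of the 10. Cd70 had the largest value (log2 -1.92, 95% interval -4.36 to 0.52, edgeR adjusted p = 0.9999), then Cd40 (-1.47, -3.14 to 0.20) and Tnfsf9 (-1.13, -2.60 to 0.34). Without naive replicate 3 these values were 0.42, -0.12 and -0.06, again with none of the 10 called. Without all 3 libraries of more than 100 Gpr34 counts they were 0.18, 0.036 and -0.24, with 1 LPS knockout-labelled library left. The intervals are wide, so differences of several-fold in the response of Cd70 were not detectable with these libraries.

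Other genes of these pathways give the setting in wild-type cells, where 18.1% of all genes were called higher and 15.8% lower. Of the T cell receptors for the 10 molecules, 6 of 8 passed the filter. None was called higher and 1 lower with LPS: Tnfrsf4, the OX40 receptor, fell by 1.34 on the log2 scale (edgeR adjusted p = 0.00166). Icos (-0.72, adjusted p = 0.0602), Pdcd1 (-2.20, 0.137) and Tnfrsf9 (-0.40, 0.171) did not pass. Tnfrsf9, the 4-1BB receptor, stood at 608 ± 39.1 CPM per kilobase (SD, n = 3) in naive wild-type cells, above the per-length level of every one of the 10 genes there, while its ligand Tnfsf9 was at 2.84. In the same libraries Cd3e was at 0 and the 7 T cell markers together summed to at most 3.2 CPM.

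Among 12 tested genes of a wider list of B7, immunoglobulin-family and other checkpoint ligands and receptors, 7 rose and 2 fell (median log2 1.16). Lgals9, which encodes galectin-9, rose by 2.49, the adhesion ligand Nectin2 by 1.73, the anti-phagocytic ligand Cd47 by 0.99 and the inhibitory receptor Btla by 3.65. Of 11 TNF family members, 7 rose and 3 fell (median 1.301), with Tnf up by 5.33, Tnfsf15 by 5.55, Tnfrsf1b by 1.87 and Tnfsf8 by 1.19. Of 12 genes of CD40 signalling, 8 rose and 1 fell (median 0.59). These included the adaptors Traf1 (1.56) and Traf2 (0.67), Birc3 (1.14) and the non-canonical NF-kappaB subunit Nfkb2 (1.19). Of 16 maturation genes, 12 rose and none fell (median 1.15), Il12b by 7.09, Ebi3 by 3.52, Ccl17 by 2.95 and Marcksl1 by 2.26. Of 7 tested genes that act on the 10 molecules as proteins, 2 rose and 1 fell (median -0.04). Adam10, a protease that sheds surface proteins, fell by 0.76, while Adam17 rose by 0.56 and Spop, a ubiquitin ligase adaptor for PD-L1, by 0.40, and Marchf8 was at -0.18 (edgeR adjusted p = 0.257). Set against the shares over all genes, the few calls among these regulators and the T cell receptors are not a result about those lists. In knockout-labelled cells 15.3% of all genes were called higher and 13.4% lower. There the higher and lower calls were 0 and 2 for the T cell receptors and 7 and 3 for the wider B7 list. They were 7 and 3 for the TNF family, 7 and 0 for CD40 signalling, 11 and 0 for maturation, and 1 and 1 for the protein-level regulators. Without the 3 libraries of more than 100 Gpr34 counts these were 0 and 1, 7 and 3, 7 and 3, 8 and 1, 12 and 0, and 1 and 0, against 10.9% and 9.57% of all genes. Without composition factors, wild-type cells had 0 higher and 3 lower calls among the T cell receptors, 5 and 3 in CD40 signalling and 0 and 4 among the protein-level regulators, and knockout-labelled cells had 3 and 1 in CD40 signalling and 0 and 2 among the protein-level regulators. In those fits 9.43% of all genes were called higher and 36.1% lower in wild-type cells, and 8.49% and 29.4% in knockout-labelled cells. No gene of these lists was called between genotypes or in the interaction.

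Genes outside the set with the most similar course over the 12 dendritic cell libraries were found by Pearson's r of log2 CPM, given without a p because the libraries fall into naive and LPS clusters. Cd274 was matched most closely by Slamf7 (r = 0.999) and Slco3a1 (0.995), Cd40 by Lad1 and Tnfaip3 (both 0.997), and Cd86 by Il2ra (0.997) and Wnk1 (0.995). Tnfsf4 followed Fam129a (0.997) and Wnk1 (0.995), Cd80 followed Pvr (0.996) and Akna (0.993), and Cd70 followed Stat5a (0.993) and Tmem39a (0.991). Tnfsf9 followed Plscr1 (0.992) and Tmem39a (0.989), Cd83 followed Copg1 (0.982) and Copa (0.981), and Icosl followed Hdac11 (0.941) and Trim13 (0.937). Pdcd1lg2 had no close match, with Lmf2 at 0.824 and Hsbp1 at 0.791.

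In whole spleen, which mixes many cell types, the 10 genes had another order and none was called between genotypes. Spleen and dendritic cell values are set side by side without a test. Gapdh, outside the list, averaged 3.41 CPM in naive wild-type dendritic cells and 93.7 CPM in wild-type spleens. The cause of that gap was not tested, so ranks and ratios set across tissues may carry an unknown difference. Per kilobase, wild-type spleens held most Cd83 (28.8 ± 4.37 CPM per kilobase, SD, n = 10) and Cd40 (27.0 ± 2.69), whose ranges overlapped. Cd86 (16.0 ± 1.34) and Icosl (15.2 ± 1.86) came next and also overlapped, then Cd274 (3.61 ± 0.48) and Cd80 (2.79 ± 0.49), likewise overlapping. Tnfsf9 (0.98 ± 0.36) and Pdcd1lg2 (0.86 ± 0.12) overlapped as well, and Tnfsf4 (0.11 ± 0.05) and Cd70 (0.06 ± 0.08) were lowest, with overlapping ranges. Cd86 per kilobase exceeded Cd80 by a ratio of 5.93 ± 1.41 (SD, n = 10) in wild-type spleens, against 1.68 in naive wild-type dendritic cells. Icosl ranked in the fourth place in spleen and in the eighth in naive wild-type dendritic cells.

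Of the 10 genes, 9 passed the filter in spleen and were tested. Between knockout and wild-type, edgeR called 0 of the 9, against 0.177% of 20371 genes, 0.0982% higher and 0.0785% lower (3541 genes at an unadjusted p below 0.05). The share over all genes turned on single spleens: without knockout spleen 6 it was 5.1% (524 higher and 527 lower), without wild-type spleen 2 74 and 29 were called and without knockout spleen 8 only 4 and 4. None of the 9 was called in any of these fits, and Cd274 was at -0.32 without knockout spleen 6 (edgeR adjusted p = 0.103). The calls of DESeq2 were 442 higher and 431 lower and those of limma voom 383 and 407, again with none of the 9 among them. Cd274 had the lowest p: it read 10.7 (lowest), 13.2 (median) and 15.6 CPM (highest) in wild-type and 6.66, 11.2 and 13.4 CPM in knockout spleens. The ranges overlapped (log2 -0.28, 95% interval -0.52 to -0.03, edgeR adjusted p = 0.232). Cd40 ran from 78.9 to 106 CPM (median 91.8) in wild-type and from 58.2 to 99.7 CPM (median 85.1) in knockout spleens (log2 -0.11, adjusted p = 0.511). Cd86 ran from 51.7 to 65.7 CPM (median 58.9) and from 42.3 to 87.3 CPM (median 52.1), a wider spread in the knockout group. Icosl ran from 55.1 to 84.7 CPM in wild-type and from 47.4 to 77.7 CPM in knockout spleens, and Cd83 from 60.1 to 93.3 and from 49.3 to 92.4 CPM. The other tested log2 differences were -0.14 for Cd80, 0.15 for Pdcd1lg2, -0.09 for Tnfsf9 and -0.58 for Tnfsf4, the last on 0 to 35 counts a library with a 95% interval of -1.52 to 0.37. Cd70 was left untested with 0 to 14 counts a library. The CPM ranges of the genotypes overlapped for all 10 genes, where 0.0736% of all genes had none, and the 95% interval of the log2 difference included 0 for each tested gene other than Cd274.

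**Figure D5:**
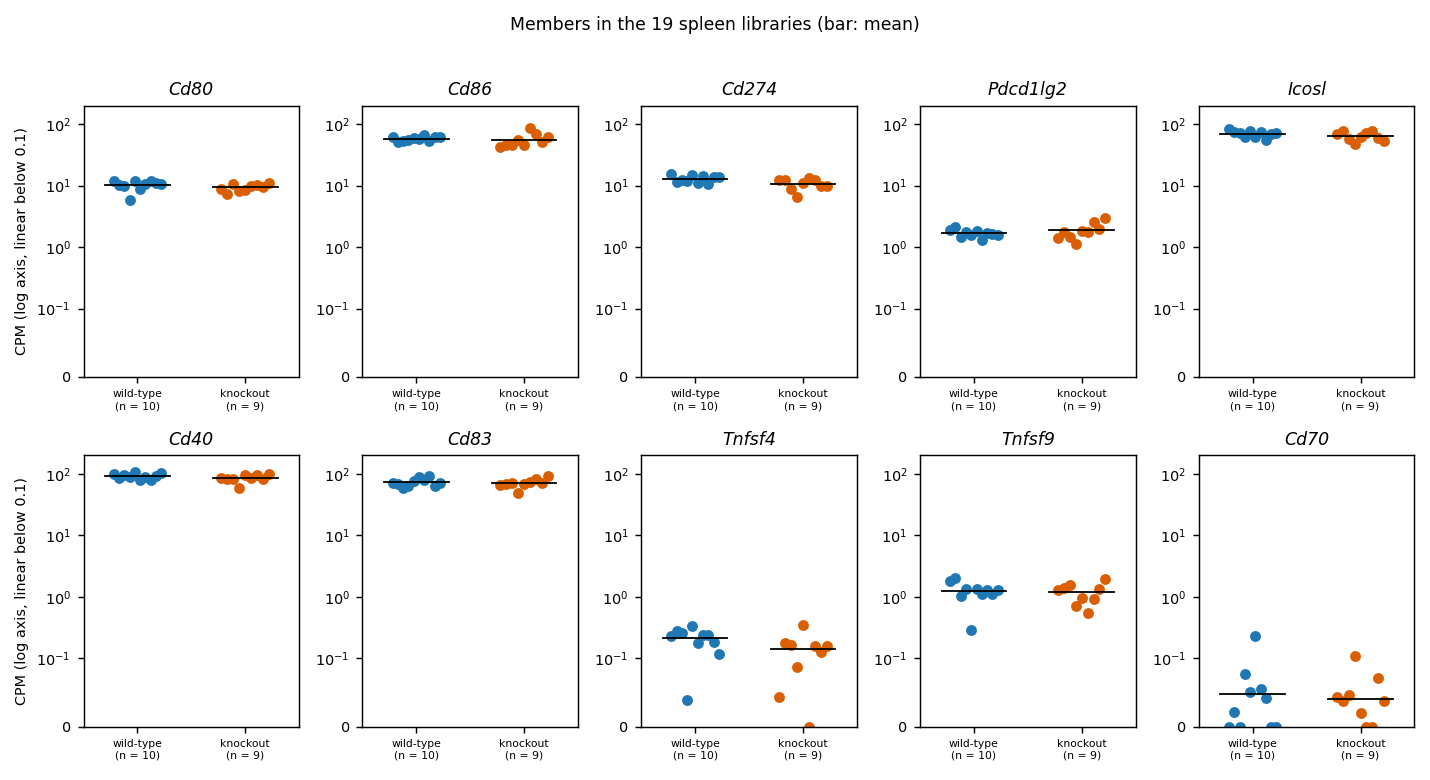
CPM of each gene in 10 wild-type and 9 knockout spleens (log axis, linear below 0.1 CPM), each point 1 spleen and each bar the group mean. The groups overlap in all 10 panels, and Tnfsf4 and Cd70 lie at or below 0.345 CPM in every spleen.

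Marker sums varied widely among spleens. The 7 erythroid markers summed to 29196 to 114496 CPM in wild-type and 42082 to 286020 CPM in knockout spleens, highest in knockout replicate 4. The 8 exocrine pancreas markers ranged from 11.2 to 1465 and from 12.4 to 3772 CPM, and the 6 B cell markers from 2703 to 3213 and from 2205 to 3579 CPM. The 7 T cell markers summed to 585 to 1208 CPM over all spleens, the 5 NK cell markers to 77.8 to 172, the 8 macrophage markers to 663 to 1243, the 10 dendritic cell markers to 10506 to 24205, the 7 neutrophil markers to 333 to 1410 and the 6 mast cell and basophil markers to 17.5 to 34.6 CPM. No marker list had a called gene between genotypes. Without knockout spleens 4, 6 and 9, the log2 difference of Cd274 was -0.22 (edgeR adjusted p = 0.276). Of the related pathway genes in spleen, Btla (-0.57, adjusted p = 0.0562) and Tnfsf8 (-0.57, 0.0633) had the lowest adjusted p, and none was called.

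Cd274 and Icosl varied together from spleen to spleen. Over 19 spleens their log2 CPM had Pearson's r = 0.886 (permutation p = 1e-05) and Spearman's rho = 0.835 (permutation p = 1e-05), the smallest p that 100000 permutations can give. Adjusted over the 36 pairs of the 9 genes, both were 0.00036. The r was 0.833 within wild-type spleens, 0.923 within knockout spleens and 0.828 without the 2 spleens farthest from the median of Cd274. Cd40 with Cd274 had r = 0.767 (permutation p = 0.00057, adjusted 0.0103) and rho = 0.660 (permutation p = 0.00303, adjusted 0.0545). That r was 0.853 within wild-type and 0.693 within knockout spleens, 0.719 without knockout spleens 4, 6 and 9, and 0.452 without the 2 spleens farthest from the median of Cd40. Cd40 with Icosl had r = 0.634 (permutation p = 0.00344, adjusted 0.0413), rho = 0.525 (permutation p = 0.0227, adjusted 0.163). Its r was 0.766 within wild-type, 0.501 within knockout spleens, 0.634 without knockout spleens 4, 6 and 9, and 0.325 without the 2 farthest spleens. Neither rank correlation passed the adjustment. Cd40 with the B cell marker sum had r = 0.725 (permutation p = 0.00168, adjusted over 54 relations 0.0454) and rho = 0.558 (permutation p = 0.0151, adjusted 0.155), and r was 0.521 within wild-type and 0.891 within knockout spleens, 0.446 without the 2 farthest spleens and 0.366 without knockout spleens 4, 6 and 9. Tnfsf4 with the macrophage marker sum had r = -0.718 (permutation p = 0.00111, adjusted 0.0454) and rho = -0.611 (permutation p = 0.00667, adjusted 0.120), on 0 to 35 counts of Tnfsf4. Its r was -0.593 within wild-type and -0.790 within knockout spleens, -0.398 without the 2 farthest spleens and -0.440 without knockout spleens 4, 6 and 9. Spleens share composition differences, and their part in these relations was not tested. The genes most like Cd274 over the 19 spleens were Glcci1 (r = 0.950) and Lrrk2 (0.941), and those most like Icosl were Rasgrp3 (0.946) and Stard5 (0.943).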

How the data were processed

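RNA sequencing of 31 libraries (12 of dendritic cells, 19 of spleen) was deposited as raw read counts per Ensembl gene. The submitters' processing notes name bedtools, SAMtools, Bowtie, TopHat 1.3.3, DESeq and the build mm9 without roles; no source used here gives the annotation or strand setting. Of 29120 identifiers 26090 have a symbol in GENCODE M21 (GRCm38), which also gave the places and exon lengths. Each tissue was fitted apart with edgeR 4.0.16 (R 4.3.3): filterByExpr, TMM factors, group means, robust quasi-likelihood F-test, Benjamini-Hochberg over all genes tested, threshold 0.05. CPM use the TMM-scaled library size, and log2 CPM a prior count of 2. The code was tested on simulated counts. Alternatives were DESeq2 1.42.0, limma 3.58.1 voom with sample weights, median-ratio or no factors, no filter, a replicate block, fewer libraries and, in spleen, 2 surrogate variables (sva 3.50.0). The 10 genes, the pathway lists and the marker lists were chosen with earlier results of these data known. Named from each list were up to 4 genes of smallest p in LPS against naive wild-type cells, or between genotypes in spleen, and for each of the 10 genes the 2 most alike by Pearson's r; others were chosen after their values were seen. Cmtm4 could not be matched to an identifier. No 2 libraries of the same group agreed within sampling noise, and libraries of different groups were not compared in this way. Intervals cover the spread between libraries.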

Additional observations from a re-analysis of the deposited data

Results flagged for a closer look

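Within a group, the gap of the outermost library to its neighbour was large against the group's range for 3 of the 20 sets of spleen values tested, where chance marks about 1 in 20. Cd80 was lowest in wild-type spleen replicate 4, at 5.90 CPM. Cd70 was highest in wild-type spleen replicate 6, at 0.227 CPM on 14 counts. Cd40 was lowest in knockout spleen replicate 4, at 58.2 CPM, the spleen with the highest erythroid marker sum (286020 CPM). Groups of 3 dendritic cell libraries are too small for this rule.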

How the results depend on the processing

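With LPS in wild-type cells, 7 to 9 of the 10 genes were called under every alternative, and 7 to 9 when 1 library was left out. Under the alternatives, 22% (no filter) to 45.5% (no composition factors) of all genes were called. When 1 library was left out, 26.1% to 35% of all genes were called. In knockout-labelled cells 9 were called, against 28.7% of all genes. With only the 6 libraries compared in the fit, 4 were called, against 21.5% of all genes. When 1 library was left out, 5 to 9 were called, against 19.6% to 32.1% of all genes. The count was lowest without naive knockout-labelled replicate 2, where 20.3% of all genes were called. The cause was not tested. Without composition factors 7 and 6 were called, the medians over all genes were -0.44 and -0.35, and the calls over all genes split into 1599 higher and 6128 lower and into 1441 and 4985. Between genotypes, in the interaction and in spleen, none of the 10 genes was called under any alternative. Over all genes in spleen the higher and lower calls were 442 and 431 by DESeq2, 383 and 407 by limma voom, 179 and 118 without knockout spleens 4, 6 and 9, 7 and 183 without composition factors, 14 and 11 without the filter, from 4 and 4 (without knockout spleen 8) to 524 and 527 (without knockout spleen 6) when 1 spleen was left out, and 4 and 5 with surrogate variables. In the interaction they were 10 and 11 by DESeq2. DESeq2 gave no adjusted p for Cd70 with LPS.

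No source used here says that replicate numbers pair the libraries. Deviations of same-numbered libraries correlated at -0.091 to 0.075 in dendritic cells. In spleen they correlated at -0.078 to 0.29, above 0 in 8 of 9 pairs and over 0.1 in 5. There 4 of 9 knockout spleens were most like the wild-type spleen of their own number. Whether these numbers mark pairs was not tested. With no pairing named, the main spleen fit and the permutation p-values treated the spleens as unpaired. With the replicate block, 8 of the 10 genes were called with LPS in wild-type cells, against 26.4% of all genes (2489 higher and 1990 lower). In knockout-labelled cells 8 were called as well, against 24.9% of all genes (2300 higher and 1928 lower). In spleen the block left 2 genes higher and 1 lower over all genes, against 20 and 16 without the block. The block turned the sign of Icosl between naive genotypes (0.022) and, in the interaction, of Cd80 (0.018), Cd83 (0.18), Cd274 (0.071) and Icosl (-0.077).

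Other signs turned as follows, on the log2 scale, none of them in a called value. Without composition factors, Pdcd1lg2 with LPS was -0.29 in wild-type and -0.17 in knockout-labelled cells, Pdcd1lg2 and Icosl between LPS genotypes were 0.012 and 0.010, and Cd83 and Cd274 in the interaction were 0.064 and 0.034. With limma voom, Cd83, Cd274 and Pdcd1lg2 between naive genotypes were -0.091, -0.013 and 0.037, and Cd80, Cd86, Cd83, Cd274 and Pdcd1lg2 in the interaction were 0.18, 0.041, 0.22, 0.19 and -0.094. Without the 3 knockout-labelled libraries of over 100 Gpr34 counts, Pdcd1lg2 with LPS in knockout-labelled cells was -0.19. Between naive genotypes that fit gave -0.19 for Cd40, -0.095 for Cd80, -0.12 for Cd86, -0.11 for Cd83, -0.11 for Cd274, 0.036 for Pdcd1lg2, -0.075 for Tnfsf4 and -0.34 for Cd70. Between LPS genotypes it gave -0.061 for Cd86, -0.0509 for Cd83, 0.11 for Icosl, -0.17 for Tnfsf4, -0.10 for Tnfsf9 and -0.16 for Cd70. In the interaction it gave 0.036 for Cd40, 0.11 for Cd80, 0.063 for Cd86, 0.058 for Cd83, 0.19 for Cd274, -0.30 for Pdcd1lg2 and 0.18 for Cd70.

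Leaving out 1 library at a time gave these ranges where a sign turned. Between naive genotypes they were -0.20 to 1.496 for Cd40, -0.10 to 0.62 for Cd80, -0.13 to 0.50 for Cd86, -0.12 to 0.46 for Cd83, -0.12 to 0.33 for Cd274, -0.21 to 0.027 for Pdcd1lg2, -0.14 to 0.054 for Icosl, -0.083 to 1.25 for Tnfsf4 and -0.35 to 2.47 for Cd70. All but that of Icosl turned without naive knockout-labelled replicate 3. Between LPS genotypes they were -0.13 to 0.044 for Pdcd1lg2, -0.13 to 0.12 for Icosl, -0.084 to 0.24 for Tnfsf4 and -0.031 to 0.12 for Tnfsf9. In the interaction they were -0.37 to 0.35 for Cd80, -0.41 to 0.22 for Cd86, -0.24 to 0.36 for Cd83, -0.17 to 0.27 for Cd274, -0.059 to 0.18 for Pdcd1lg2, -0.081 to 0.17 for Icosl, -1.12 to 0.22 for Tnfsf4 and -2.40 to 0.42 for Cd70. In spleen they were -0.10 to 0.0059 for Cd83 and -0.21 to 0.012 for Tnfsf9.

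Depth limits Cd70 and Tnfsf4 in spleen, at 0 to 14 and 0 to 35 counts a library. CPM of the plain library size left 40 of 60 group means within 1 SD of those given.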
